A study of Homo sapiens with 20 samples.

Results

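The factors that build ribosomes in the nucleolus were examined as a module of 57 genes in colorectal cancer cells in which POLR1D had been silenced. The members were chosen by name for their known roles in ribosome production, and WDR74 and TCOF1 are among them. All 57 were listed in each of the 20 libraries, among 36346 gene names, and all 57 passed the filter on low values in both cell lines.

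RNA was sequenced after capture of coding exons from the colorectal cancer cell lines HT29 and SW480, 72 h after transfection with a control siRNA (SCR) or with either of the siRNAs siPOLR1D-2 and siPOLR1D-3. Both lines have extra copies of POLR1D, SW480 because it has gained all of chromosome 13, and HT29 from amplification of a small region, 13q12.2. HT29 was sampled with 4 SCR, 2 siPOLR1D-2 and 2 siPOLR1D-3 libraries, and SW480 with 6 SCR, 3 siPOLR1D-2 and 3 siPOLR1D-3 libraries. The comparison was made to see which genes respond when POLR1D is reduced in cells that carry extra copies of it.

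Expression was read as the normalized read counts of the authors, in which each cell line was normalized alone, so that levels in HT29 and SW480 were not tested against each other. The normalized counts of a library summed to between 17619830 and 21098188 in HT29 and between 19870433 and 22958216 in SW480. The labels do not say whether libraries of a group came from separate cultures, so p-values measure only the spread between these libraries. A lower count in such bulk RNA can come from fewer cells of a type or from less RNA per cell, and these cannot be told apart.

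POLR1D encodes a subunit shared by RNA polymerases I and III, and lies on chromosome 13 of GRCh38 from 27620742 to 27744237. In HT29 its normalized count was 6036, 4711, 4433 and 5010 in the SCR libraries, 3414 and 3492 with siPOLR1D-2, and 2858 and 2550 with siPOLR1D-3. In SW480 the SCR libraries had a lowest count of 1829, a median of 2030 and a highest count of 2599, while siPOLR1D-2 gave 1336, 913 and 972 and siPOLR1D-3 gave 843, 1174 and 981. Every silenced library of a line lay below every SCR library of that line, so the labels hold for the targeted gene in all 20 libraries. The log2 difference of silenced and SCR libraries was -1.04 (SE 0.126, limma, adjusted p = 0.000991) in SW480 and -0.72 (SE 0.140, limma, adjusted p = 0.355) in HT29.

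The labelled origin of the cells was checked against 10 colorectal epithelial markers. EPCAM and the keratins KRT8 and KRT18 were abundant in each library, with EPCAM between 17162 and 35833. The intestinal transcription factor CDX2 was at most 7.91 in HT29, and the differentiation markers KRT20 and LGALS4 were at most 11.2 and 9.07 in the SCR libraries of SW480, so these defining markers were nearly absent there. KRT20 was higher in silenced SW480 cells, between 20.7 and 94.6. It passed the filter on low values only through these libraries, so its call is not read as a result. KRT19 was called higher there (log2 difference 0.70, limma, adjusted p = 0.0226), and 1 of the 9 tested epithelial markers had a negative difference. CDX2 was higher with siPOLR1D-3 than with siPOLR1D-2 in SW480 (1.72, limma, adjusted p = 0.0387). In HT29, CDX2 was between 3.96 and 7.91 in silenced cells and at most 0.465 in SCR. The 10 epithelial markers summed to between 220500 and 261600 in HT29, where KRT8 was the most abundant, and to between 139600 and 270500 in SW480, where KRT18 was. Markers of other cell types, also 10 genes, summed to between 82.72 and 178.1 in HT29, with CD68 the most abundant, and to between 236.1 and 1020 in SW480, with COL1A1 the most abundant in most libraries. The leukocyte marker CD3E was at most 4.68 and the endothelial marker PECAM1 at most 12.5 in any library.

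Ribosome production starts in the nucleolus, where RNA polymerase I transcribes the rRNA genes into a long precursor. Small nucleolar ribonucleoproteins (snoRNPs) modify this precursor, the small-subunit processome folds and cuts it, and separate sets of assembly factors then shape the small and the large ribosomal subunit and release them to the cytoplasm. Growing tumor cells need many ribosomes, and many of these factors are known to follow cell growth and MYC activity.

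Levels of the members were compared with each other only after division by transcript length, the median over the annotated coding transcripts of a gene. Differences between genes in exon capture were not corrected, so these levels are approximate. In SCR cells, NPM1 (nucleophosmin, an abundant nucleolar chaperone) had the highest level of the 57 in both lines, at 25750 ± 1220 (SD, n = 4) normalized counts per kb in HT29 and 55610 ± 7140 (SD, n = 6) in SW480. NCL (nucleolin) came next, at 6452 ± 912 (SD, n = 4) in HT29 and 7372 ± 1250 (SD, n = 6) in SW480. RRS1, a large-subunit assembly factor, was the lowest in both lines, at 94.28 ± 11.4 (SD, n = 4) and 69.98 ± 4.2 (SD, n = 6) counts per kb. WDR74 was at 1878 ± 298 (SD, n = 4) in HT29 and 1678 ± 250 (SD, n = 6) in SW480, and TCOF1 at 973.1 ± 284 (SD, n = 4) and 1807 ± 391 (SD, n = 6), also per kb. In SW480 the levels per kb of TCOF1 and WDR74 lay within each other's SD. NPM1 has processed pseudogenes, so its reads may be shared with near-identical copies and its values are uncertain. The members are spread over the genome, with 6 each on chromosomes 1, 2 and 5 and 0 on chromosome 13.

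In HT29, WDR74 was the member that stood apart, lower with both siRNAs than in any SCR library, while 54 of the other 56 members overlapped with SCR. None of the 57 passed the threshold there: limma called 0 members at an adjusted p under 0.05 with the siRNAs pooled, where it called 0% of 13274 genes, and also 0 with siPOLR1D-2 (0% of genes), 0 with siPOLR1D-3 (0% of genes) and 0 between the siRNAs (0% of genes). The silenced gene POLR1D itself was among those not called in HT29, so the lack of calls does not show that the members were unchanged. The authors, who used a count model, reported POLR1D and other genes as changed in this line. At an unadjusted p under 0.05 from limma, 1 member was lower and 3 were higher in the pooled comparison, against 6.05% and 4.66% of all genes tested. The same count was 1 lower (2.7% of genes) and 6 higher (1.66% of genes) with siPOLR1D-2, and 1 lower (4.02%) and 0 higher (3.74%) with siPOLR1D-3. The pooled log2 difference was positive for 41 of the 57 members and had a median of 0.14, against 0.00019 over all genes tested. Without siPOLR1D-2 replicate 1 this median was 0.046. Markers of other cell types had a median of 0.69 in the pooled comparison of HT29, with 0 of the 3 tested genes negative and 0 called. Silenced libraries lay below every SCR library for 1 member, WDR74, against 4.17% of genes, and above every SCR library for 2 members, MYBBP1A and NOP14, against 2.72% of genes.

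In SW480, the RNA helicase DDX21 fell, and the assembly factors GRWD1 and NOP2 rose, in the pooled comparison. These were the only calls among the 57, 1 lower against 4.29% of 15019 genes tested and 2 higher against 2.44%, so in total the members were not called more often than genes at large. With siPOLR1D-2, limma called 0 members lower (5% of genes) and 4 higher (3.16% of genes), GRWD1, RRS1, NHP2 and NOP2. At an unadjusted p under 0.05 from limma, 2 members were lower and 13 higher with that siRNA, against 13.4% and 11.6% of all genes tested. With siPOLR1D-3 it called 3 lower (4.45% of genes), WDR74, DDX21 and NOB1, and 0 higher (2.15% of genes), and at an unadjusted p under 0.05, 10 lower and 3 higher, against 13.8% and 11.2% of all genes. Silenced libraries lay below every SCR library for 0 members (2.88% of genes) and above every SCR library for 0 (1.68% of genes), by direct comparison of the 6 silenced with the 6 SCR libraries. The pooled count of 3 was 0 when SCR replicate 3, 4, 5 or 6, siPOLR1D-2 replicate 3 or siPOLR1D-3 replicate 3 was left out, and 1 without siPOLR1D-2 replicate 1 or siPOLR1D-3 replicate 1 or 2. It was also 0 in limma without trend or without the filter on low values, where the 4 calls with siPOLR1D-2 became 2 and 1 and the 3 with siPOLR1D-3 became 0 and 1.

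**Figure D1:**
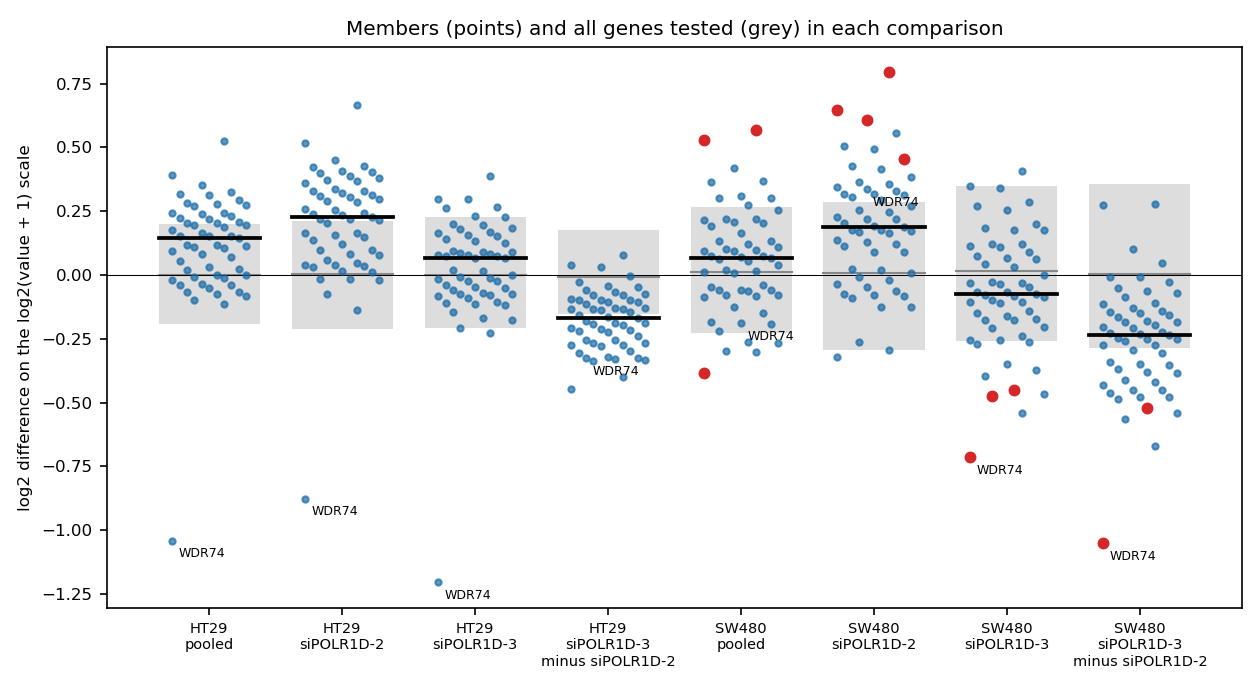
Log2 difference on the log2(value + 1) scale (y axis) of each of the 57 members (points) in each comparison of a cell line (x axis), with the members called by limma in red, the median of the members as a black line, and the quartile range of all genes tested in grey. WDR74 lies far below the other members in HT29, at -1.04 pooled, and is the lowest of them in SW480 with siPOLR1D-3, at -0.71.

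Promoters of the members were read from RefSeq (GRCh38.p14) as the 250 bases before each start site, and 49 of the 57 had an entry. They are shown for WDR74, DDX21, GRWD1 and NOP2, the member with the largest difference between the siRNAs in SW480 and the 3 called there with the siRNAs pooled, and capitals mark the letters CCGGAAG, the core recognized by ETS factors. The windows are chr11:62839591-62839840 on the minus strand for WDR74, chr10:68955920-68956169 on the plus strand for DDX21, chr19:48445733-48445982 on the plus strand for GRWD1 and chr12:6568292-6568541 on the minus strand for NOP2.
WDR74: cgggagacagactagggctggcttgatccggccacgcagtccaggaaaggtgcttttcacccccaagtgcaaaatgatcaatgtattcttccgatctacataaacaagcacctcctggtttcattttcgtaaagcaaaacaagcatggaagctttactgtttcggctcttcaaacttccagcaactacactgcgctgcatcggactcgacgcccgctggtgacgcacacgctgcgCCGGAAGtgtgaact
DDX21: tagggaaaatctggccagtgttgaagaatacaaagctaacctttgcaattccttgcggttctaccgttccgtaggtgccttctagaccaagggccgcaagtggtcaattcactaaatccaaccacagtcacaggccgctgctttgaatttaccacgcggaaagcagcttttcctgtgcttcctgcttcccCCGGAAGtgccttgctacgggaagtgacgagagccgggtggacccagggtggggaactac
GRWD1: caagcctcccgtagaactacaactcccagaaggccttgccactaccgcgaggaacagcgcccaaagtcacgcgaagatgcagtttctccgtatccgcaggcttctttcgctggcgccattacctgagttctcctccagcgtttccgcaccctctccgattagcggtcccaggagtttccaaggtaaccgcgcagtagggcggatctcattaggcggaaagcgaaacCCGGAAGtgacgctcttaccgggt
NOP2: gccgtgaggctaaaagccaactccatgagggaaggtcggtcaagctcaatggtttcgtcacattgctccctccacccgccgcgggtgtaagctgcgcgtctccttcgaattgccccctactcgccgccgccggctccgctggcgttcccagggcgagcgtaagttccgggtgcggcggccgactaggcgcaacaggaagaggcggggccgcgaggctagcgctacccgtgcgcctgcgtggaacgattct
The letters end 8 bases before the start site in WDR74, 53 in DDX21 and 17 in GRWD1, and NOP2 holds none on either strand. On either strand, CCGGAAG was found in 19 of the 49 member promoters (38.8%), against 8.82% of 27305 promoters in all and 16.8% of the 9422 promoters of genes tested in both lines. CACGTG, the palindromic E-box core that MYC binds, was in 6 of the 49 (12.2%), against 6.49% of all and 9.04% of tested genes, and in none of the 4 shown. GGGCGG, the core of the GC box, was in 35 of the 49 (71.4%) on either strand, against 42.3% and 67.7%. The windows of WDR74 and NOP2 lie inside the annotated genes, which reach 62841809 and 6568691 on the minus strand. Promoters at other annotated start sites were not read. A match describes letters in these windows and was not tested for binding.

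The SW480 libraries fell on both sides of the first principal component of all genes tested, which carried 42% of the variance. SCR replicates 1 to 3 and siPOLR1D-2 replicates 1 and 2 had negative scores, between -71.5 and -14.1, and the other libraries positive scores, between 21.8 and 53.7. All 3 siPOLR1D-3 libraries are thus on the positive side, with 3 SCR libraries and 1 siPOLR1D-2 library. Among the libraries of the positive side alone, limma called 5 of the 57 members in the pooled comparison, against 12.5% of all genes, and 9 with siPOLR1D-3, against 20.3%. Among the libraries of the negative side alone, which hold no siPOLR1D-3 library, it called 0 of the 57 and 0% of genes. The sides were drawn from the same values that were tested and overlap with siRNA, so these counts are not read as results. Of the markers of other cell types, COL3A1 was at most 2.23 on the negative side and between 9.53 and 25.3 on the positive. COL1A1 was between 75.5 and 296 and between 248 and 700, so its sides overlapped. The sides also overlapped for the rest of the list, such as CD68, between 58.4 and 161 on the negative side and between 54.7 and 119 on the positive. What the side reflects was not tested. In HT29, the same component carried 43.3% of the variance and set SCR replicate 1 apart, at -88.3 against scores between -18.7 and 21.1 for the other 7 libraries.

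**Figure D2:**
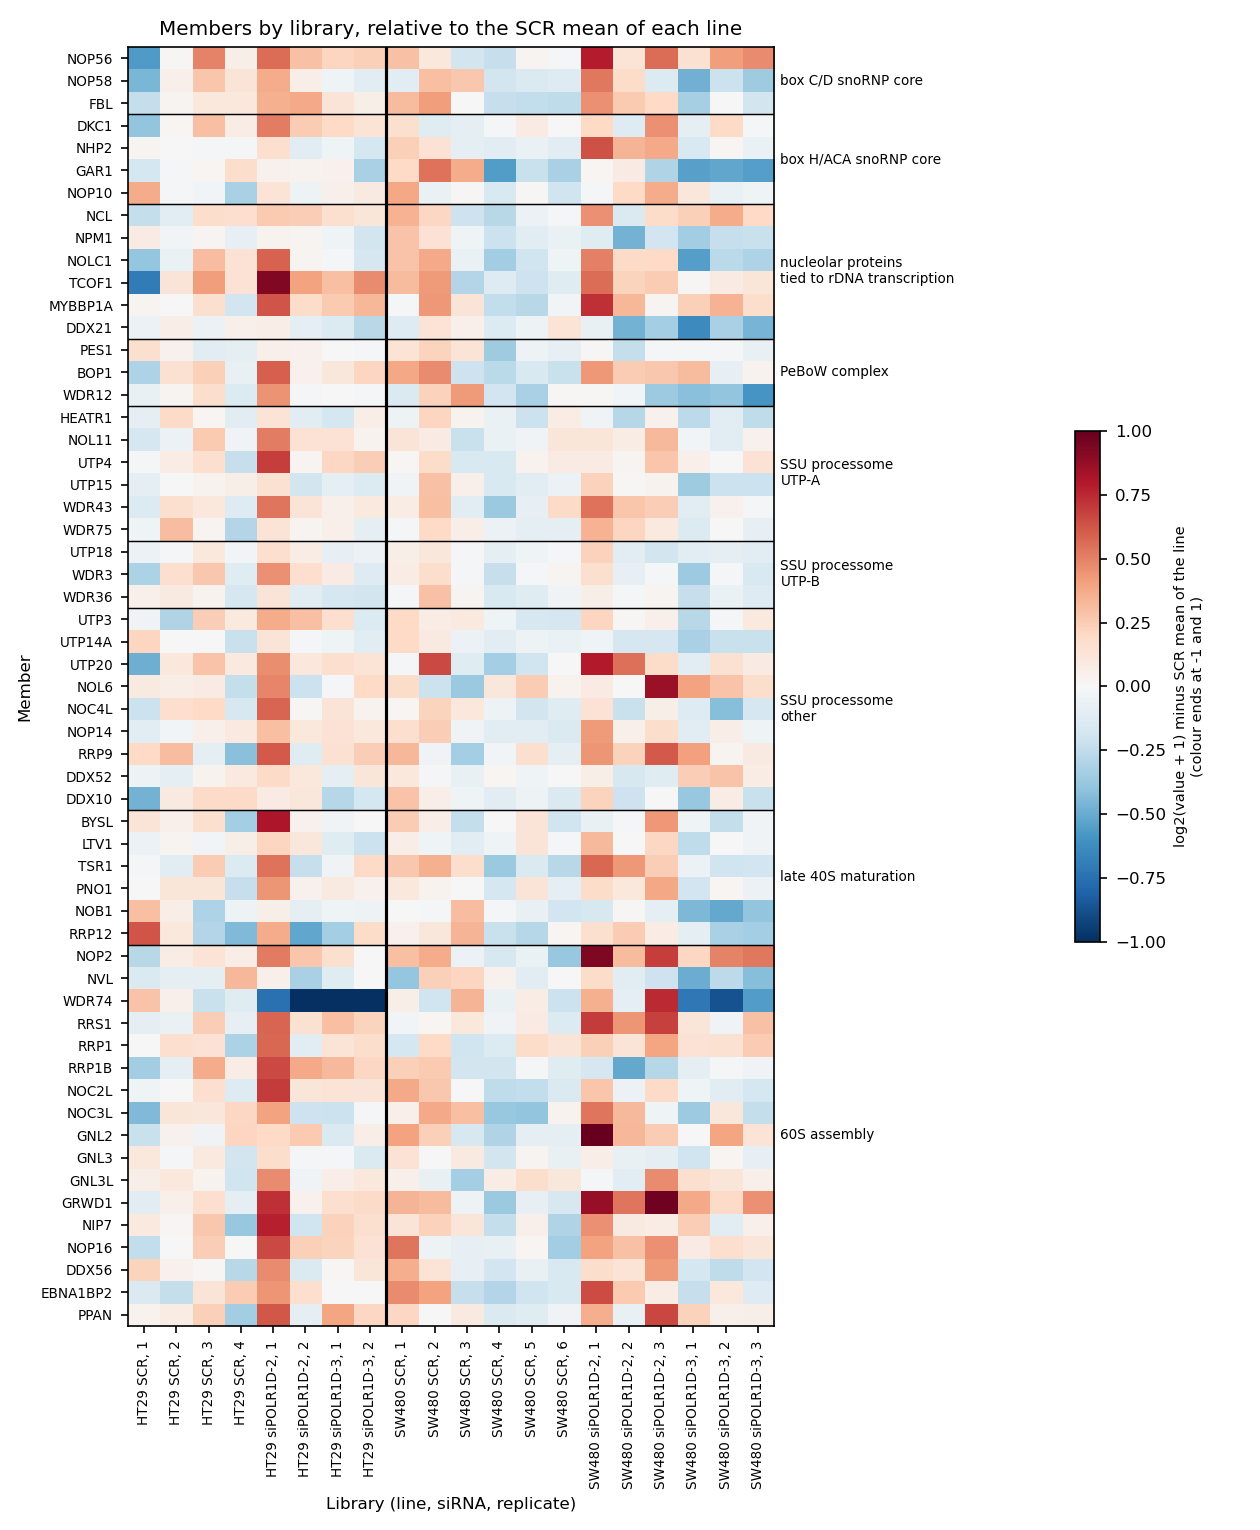
Log2(value + 1) of each of the 57 members (rows, grouped by role) in each of the 20 libraries (columns), minus the SCR mean of the same cell line, with the colour scale ending at -1 and 1. The dark blue WDR74 row marks the silenced HT29 libraries and the siPOLR1D-3 libraries of SW480, and the HT29 column siPOLR1D-2 replicate 1 is red in nearly every row.

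Among the nucleolar proteins tied to rRNA gene transcription, TCOF1 encodes treacle, which binds RNA polymerase I and is mutated, like POLR1D, in Treacher Collins syndrome. TCOF1 lies on chromosome 5 from 150357629 to 150400308. In HT29 its normalized count was 2770, 4928, 6014 and 4973 in SCR, 8546 and 5948 with siPOLR1D-2, and 5551 and 6225 with siPOLR1D-3. The silenced libraries were high but overlapped with SCR, whose replicate 1 was the lowest of all. The pooled log2 difference of 0.53 (SE 0.234) did not pass the threshold (limma, adjusted p = 0.462), and the exact permutation test gave p = 0.0857, where the smallest p for 4 against 4 libraries is 0.0286. Without SCR replicate 1 the difference in TCOF1 was 0.29, and without SCR replicate 3 it was 0.67. In SW480 the SCR libraries had a lowest TCOF1 count of 6962, a median of 7822 and a highest count of 11442, against 12556, 9948 and 10151 with siPOLR1D-2 and 8610, 8999 and 9282 with siPOLR1D-3. The groups overlapped here too, with SCR replicates 1 and 2 above 5 of the 6 silenced libraries. The log2 difference was 0.21 (SE 0.138, limma, adjusted p = 0.391, exact permutation p = 0.173). With the settings used in the text, TCOF1 was not called with either siRNA alone in either line, but 2 other settings called it with siPOLR1D-2 in SW480.

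DDX21 encodes an RNA helicase that binds rRNA precursors and snoRNAs. Its SW480 count had a lowest value of 9373, a median of 10320 and a highest value of 11358 in SCR, against 9807, 7445 and 8154 with siPOLR1D-2 and 6632, 8267 and 7476 with siPOLR1D-3. All but siPOLR1D-2 replicate 1 lay below each SCR library. DDX21 fell by 0.39 on the log2 scale (SE 0.101, limma, adjusted p = 0.0374, exact permutation p = 0.00649, lower in 5 of 6 silenced libraries than in any SCR library), and with siPOLR1D-3 alone by 0.48 (SE 0.116, limma, adjusted p = 0.0313). The pooled call held only without SCR replicate 1 or siPOLR1D-2 replicate 1, and was lost without any of the other 10 libraries (adjusted p from 0.0512 to 0.0835), without trend (0.0637), without a filter (0.0728) and after quantile normalization (0.0583). With a replicate block and on the negative side of the first component alone the pooled call was lost too (limma, adjusted p up to 0.647). Of the alternatives, 12 lost the siPOLR1D-3 call. Among them were those without SCR replicate 2, 3 or 6 or any siPOLR1D-3 replicate (adjusted p from 0.0506 to 0.184), without trend (0.0573) and without a filter (0.0552). It was also lost with quantile or upper quartile scaling (0.056 and 0.0539) and with the side of the first component as a covariate (0.0548). In HT29, DDX21 was at 7933, 8634, 7897 and 8543 in SCR, 8613 and 7708 with siPOLR1D-2, and 7497 and 6793 with siPOLR1D-3. These values overlapped, and DDX21 was not called (log2 difference -0.11, limma, adjusted p = 0.676).

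MYBBP1A, a nucleolar regulator of rRNA transcription and processing, was at 952, 937, 1040 and 817 in HT29 SCR cells, 1441 and 1060 with siPOLR1D-2, and 1120 and 1177 with siPOLR1D-3. All 4 silenced libraries were above all 4 SCR libraries, which gives the smallest exact permutation p that the design allows, 0.0286, but limma did not call it (log2 difference 0.35, adjusted p = 0.43). Its log2 difference in SW480 was 0.31 (limma, adjusted p = 0.203). NPM1 was between 69918 and 98599 in SW480 SCR cells and between 58500 and 74502 in the silenced cells, with 4 of 6 silenced libraries below each SCR library (log2 difference -0.26, limma, adjusted p = 0.156, exact permutation p = 0.00866). NCL had a log2 difference of 0.20 in HT29 and 0.22 in SW480, and NOLC1, which chaperones snoRNPs, 0.11 and -0.039, none of them called.

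The core proteins of box C/D snoRNPs, which guide methylation of rRNA, are NOP56, NOP58 and the methyltransferase FBL. NOP56 in SW480 had a lowest count of 7446, a median of 8755 and a highest count of 10723 in SCR, against 15064, 9607 and 12868 with siPOLR1D-2 and 9711, 11646 and 12119 with siPOLR1D-3. It was above each SCR library in 4 of 6 silenced libraries but narrowly missed the threshold (log2 difference 0.42, SE 0.126, limma, adjusted p = 0.0607, exact permutation p = 0.0108). NOP56 was called without SCR replicate 1 (adjusted p 0.0327) or siPOLR1D-2 replicate 2 (0.0426), and in limma with array weights (0.00512), with quantile or upper quartile scaling (0.0203 and 0.029) and with the mean of the siRNA contrasts (0.0498). It was also called with the side of the first component as a covariate (0.0312) and on its positive side alone (0.0241). The side was drawn from the same values, so these last calls are not read as support. NOP58 and FBL had pooled log2 differences of -0.078 and 0.066 in SW480 and of 0.072 and 0.23 in HT29. With the settings used in the text, none of the 3 was called in either line.

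Box H/ACA snoRNPs, which guide pseudouridylation, are built on DKC1, NHP2, GAR1 and NOP10. NHP2 in SW480 had a lowest count of 1301, a median of 1326 and a highest count of 1657 in SCR, against 2189, 1777 and 1830 with siPOLR1D-2 and 1264, 1420 and 1340 with siPOLR1D-3. The siPOLR1D-2 libraries were all above SCR, while the siPOLR1D-3 libraries fell within or below it. NHP2 rose with siPOLR1D-2 by a log2 difference of 0.45 (SE 0.114, limma, adjusted p = 0.0298), and siPOLR1D-3 differed from siPOLR1D-2 by -0.52 (SE 0.131, limma, adjusted p = 0.0499). The siPOLR1D-2 call was lost without SCR replicate 4, 5 or 6, any siPOLR1D-2 replicate or siPOLR1D-3 replicate 3 (adjusted p from 0.0503 to 0.147), without trend (0.0526) and without a filter (0.0525), and the difference between the siRNAs was lost without any of these libraries or siPOLR1D-3 replicates 1 and 2 (from 0.0528 to 0.188) and under 8 other settings of limma (from 0.0503 to 0.15, the highest with the side of the first component as a covariate). With a replicate block the siPOLR1D-2 call of NHP2 was lost too (limma, adjusted p = 0.259). NHP2 overlaps RMND5B on the opposite strand, and reads of overlapping genes may not be told apart. DKC1, the pseudouridine synthase, had pooled log2 differences of 0.27 in HT29 and 0.10 in SW480, GAR1 of -0.053 and -0.30, and NOP10 of 0.056 and 0.094, none of them called.

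The small-subunit processome members gave no call in any comparison. The pooled log2 difference of the 6 UTP-A members, the subcomplex that binds the start of the precursor, ranged in HT29 from -0.065 for UTP15 to 0.29 for UTP4, and in SW480 from -0.15 for HEATR1 to 0.16 for WDR43. The 3 UTP-B members, UTP18, WDR3 and WDR36, lay between -0.083 and 0.14 in HT29 and between -0.077 and -0.060 in SW480. The 9 other processome members lay between -0.065 for DDX10 and 0.22 for RRP9 in HT29, and between -0.19 for UTP14A and 0.30 for RRP9 in SW480. UTP14A was below each SCR library in 5 of 6 silenced SW480 libraries (limma, adjusted p = 0.179, exact permutation p = 0.0108). NOP14 was higher in the 4 silenced HT29 libraries, at 2903, 2532, 2606 and 2528, than in SCR, at 2172, 2303, 2434 and 2516. The gap between its groups was narrow, from 2516 to 2528, and NOP14 was not called by limma (log2 difference 0.17).

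Of the 6 members that act late in maturation of the small subunit, NOB1 is the endonuclease that makes the last cut at the end of its rRNA. In SW480 NOB1 had a lowest count of 1261, a median of 1423 and a highest count of 1785 in SCR, against 1292, 1457 and 1353 with siPOLR1D-2 and 1060, 1014 and 1100 with siPOLR1D-3. With siPOLR1D-3 all 3 libraries were below each SCR library, and with siPOLR1D-2 none was. NOB1 fell with siPOLR1D-3 by 0.45 on the log2 scale (SE 0.11, limma, adjusted p = 0.032), and siPOLR1D-3 and siPOLR1D-2 themselves were not called apart (-0.37, limma, adjusted p = 0.121). Of the alternatives, 9 lost this call. Among them were those without any of the siPOLR1D-3 replicates (adjusted p from 0.109 to 0.135), without trend (0.0548) and without a filter (0.0527). It was also lost with quantile or upper quartile scaling (0.0723 and 0.0703) and with the side of the first component as a covariate (0.069). BYSL, LTV1, TSR1, PNO1 and RRP12 had pooled log2 differences between -0.076 and 0.20 in HT29 and between -0.046 and 0.13 in SW480, none of them called.

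Among the large-subunit factors, WDR74 encodes a nucleolar WD-repeat protein that works with the ATPase NVL on large-subunit precursors. WDR74 lies on chromosome 11 from 62832342 to 62841809 on the minus strand, and overlaps TEX54 on the same strand, so reads of the 2 genes may be shared. In HT29 its normalized count was 3105, 2639, 2178 and 2340 in SCR, 1517 and 1262 with siPOLR1D-2, and 1251 and 972 with siPOLR1D-3. The 4 silenced libraries lay well below the lowest SCR library, with means of 1250 ± 223 (SD, n = 4) against 2565 ± 407 (SD, n = 4). The log2 difference was -1.04 (SE 0.159, 95% interval from -1.40 to -0.68), which ranked 2 among the 13274 genes tested by p but missed the threshold after adjustment (limma, adjusted p = 0.316, exact permutation p = 0.0286, the smallest possible). With siPOLR1D-2 alone it was -0.88 (SE 0.185, limma, adjusted p = 0.837) and with siPOLR1D-3 alone -1.20 (SE 0.185, limma, adjusted p = 0.396), where WDR74 ranked 5 and 1 of all genes. The siRNA comparisons share the SCR libraries. Leaving out each HT29 library in turn gave pooled differences between -1.14 and -0.93 with no call, and with array weights in limma WDR74 was called with siPOLR1D-3 (-1.10, adjusted p = 0.0285). With a replicate block in limma it was called pooled (adjusted p = 0.0127) and with siPOLR1D-3. The labels do not say that libraries of the same replicate number belong together.

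In SW480, WDR74 had a lowest count of 1956, a median of 2272 and a highest count of 2877 in SCR, against 2903, 2138 and 3805 with siPOLR1D-2 and 1381, 1244 and 1545 with siPOLR1D-3. The siPOLR1D-3 libraries were below each SCR library, whereas 2 of the 3 siPOLR1D-2 libraries were above the highest of them. WDR74 fell with siPOLR1D-3 by 0.71 on the log2 scale (SE 0.171, limma, adjusted p = 0.0293) and was not called with siPOLR1D-2 (0.34, SE 0.171, limma, adjusted p = 0.244). The difference between the siRNAs was itself past the threshold, at -1.05 (SE 0.198, limma, adjusted p = 0.0188), and with them pooled the difference was -0.19 (limma, adjusted p = 0.69). Leaving out single libraries moved the siPOLR1D-2 value between 0.133 and 0.549 and the pooled value between -0.375 and -0.0527, with no call. On the positive side of the first component alone, the siPOLR1D-3 value was -0.65, and with the side as a covariate the difference between the siRNAs was -1.11. The side was drawn from the same values, so neither is read as support for the calls. The siPOLR1D-3 call was lost without any of the siPOLR1D-3 replicates (adjusted p 0.129, 0.13 and 0.0831), without trend (0.051) and with quantile or upper quartile scaling (0.0613 and 0.0586). The difference between the siRNAs was lost without siPOLR1D-2 replicate 1 (0.078) or any siPOLR1D-3 replicate (0.0836, 0.0816 and 0.0643).

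**Figure D3:**
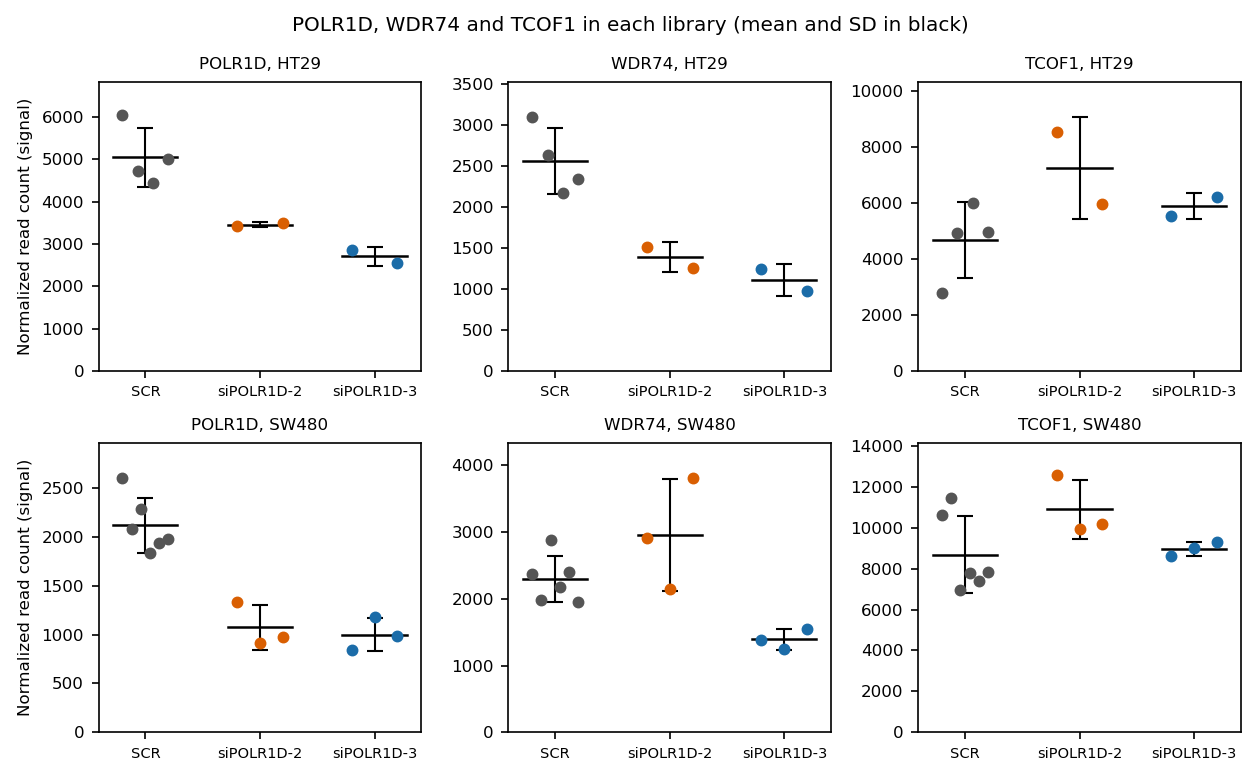
Normalized read count (y axis, from 0) of POLR1D, WDR74 and TCOF1 in each library (points) of HT29 (upper row) and SW480 (lower row) by siRNA, with the mean and SD in black. WDR74 lies between 972 and 1517 in the silenced HT29 libraries, all below the SCR libraries, and in SW480 between 1244 and 1545 with siPOLR1D-3 but between 2138 and 3805 with siPOLR1D-2.

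Of the further large-subunit factors called in SW480, GRWD1 overlaps KCNJ14, NOP2 overlaps AC006064.6 and RRS1 overlaps AC009879.2, each on the same strand, so their reads may be shared. GRWD1, a WD-repeat chaperone for a large-subunit protein, had a lowest SW480 count of 641, a median of 790 and a highest count of 1048 in SCR, against 1516, 1198 and 1625 with siPOLR1D-2 and 1075, 944 and 1134 with siPOLR1D-3. In 5 of 6 silenced libraries it was above each SCR library. GRWD1 rose by a log2 difference of 0.57 pooled (SE 0.158, limma, adjusted p = 0.0478, exact permutation p = 0.0108) and of 0.79 with siPOLR1D-2 (SE 0.165, limma, adjusted p = 0.013). The pooled call was lost without any single library other than SCR replicates 1 and 2 and siPOLR1D-3 replicate 2 (adjusted p from 0.0651 to 0.1), without trend (0.0691) and without a filter (0.0712). The pooled GRWD1 call was also lost with a replicate block and on the negative side of the first component alone (limma, adjusted p up to 0.485). The siPOLR1D-2 call of GRWD1 was lost without siPOLR1D-2 replicate 1 or 3 (0.064 and 0.0552) and with a replicate block (0.173). NOP2, a methyltransferase of large-subunit rRNA, had a lowest count of 1389, a median of 1730 and a highest count of 2337 in SCR, against 3460, 2248 and 2917 with siPOLR1D-2 and 2087, 2550 and 2606 with siPOLR1D-3. It was above each SCR library in 4 of 6 silenced libraries and rose by a log2 difference of 0.53 pooled (SE 0.149, limma, adjusted p = 0.0495, exact permutation p = 0.0108) and of 0.65 with siPOLR1D-2 (SE 0.177, limma, adjusted p = 0.0425). The pooled NOP2 call was lost without SCR replicate 3, 4, 5 or 6, siPOLR1D-2 replicate 1 or 3, or siPOLR1D-3 replicate 2 or 3 (adjusted p from 0.0798 to 0.104), without trend (0.075), without a filter (0.076) and with robust empirical Bayes (0.050). The siPOLR1D-2 call of NOP2 was lost without any of these libraries or siPOLR1D-3 replicate 1 (from 0.0556 to 0.191), without trend (0.0691), without a filter (0.0641) and with a replicate block (0.307). The pooled NOP2 call was lost with the block and on the negative side alone as well (limma, adjusted p up to 0.599).

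RRS1 in SW480 had a lowest count of 108, a median of 119 and a highest count of 128 in SCR, against 194, 162 and 192 with siPOLR1D-2 and 130, 116 and 146 with siPOLR1D-3. The siPOLR1D-2 libraries were all above SCR. RRS1 rose with siPOLR1D-2 by a log2 difference of 0.61 (SE 0.152, limma, adjusted p = 0.0291) and was not called with siPOLR1D-3 (0.12, limma, adjusted p = 0.641). Of the alternatives, 8 lost this siPOLR1D-2 call (adjusted p up to 0.229). Among them were those without SCR replicate 4 or 6 or any siPOLR1D-2 replicate (from 0.0526 to 0.119) and without a filter (0.0628). In HT29 the large-subunit factors with the smallest p after WDR74 were RRP1B (log2 difference 0.39), NOP16 (0.32), RRS1 (0.31), GRWD1 (0.28) and NOC2L (0.27), none of them called. The PeBoW complex, PES1, BOP1 and WDR12, works early in large-subunit assembly, and its pooled log2 differences were 0.018, 0.24 and 0.10 in HT29 and -0.058, 0.20 and -0.30 in SW480, with no call. NVL, the partner of WDR74, had -0.099 in HT29 and -0.22 in SW480, also not called.

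**Figure D4:**
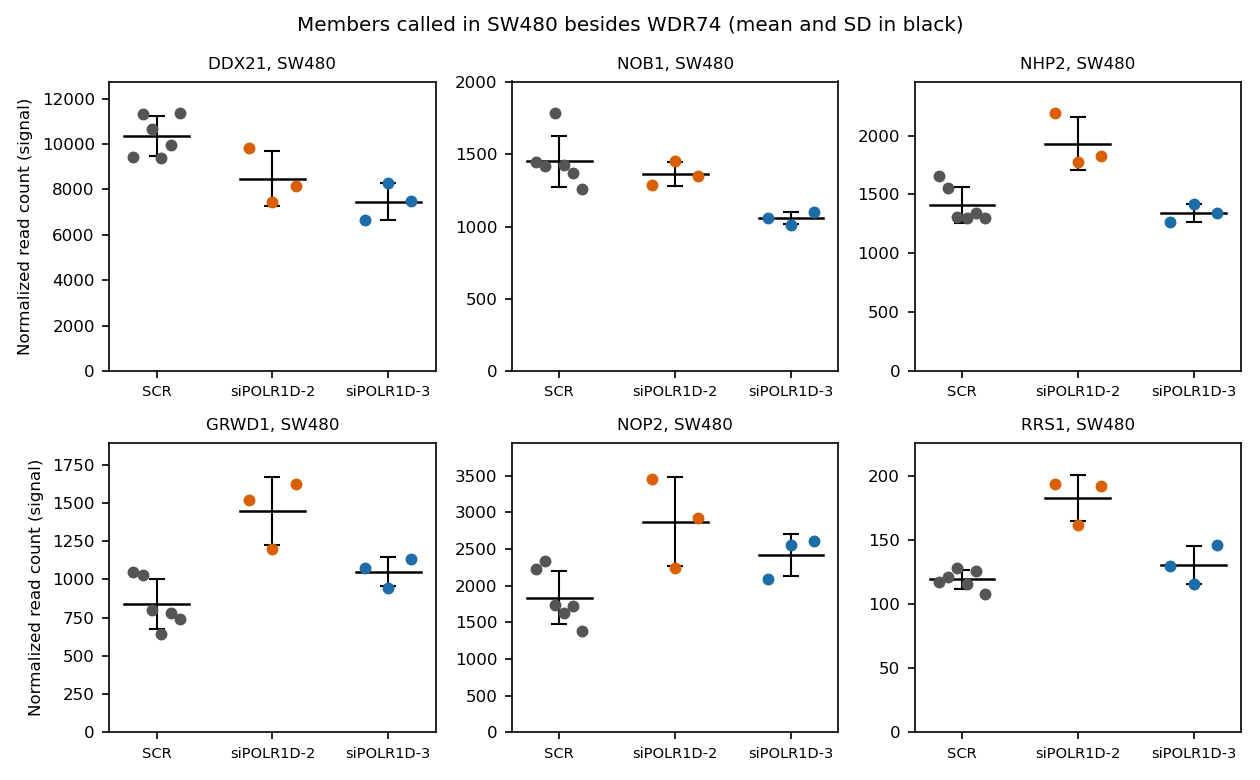
Normalized read count (y axis, from 0) in each SW480 library (points) of the members called in SW480 besides WDR74, with the mean and SD of each group in black. DDX21 and NOB1 are lowest with siPOLR1D-3, whereas NHP2, GRWD1, NOP2 and RRS1 are highest with siPOLR1D-2.

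The difference between the siRNAs leaned the same way in most members, lower with siPOLR1D-3 than with siPOLR1D-2. In SW480 it was negative for 53 of 57 members with a median of -0.24, against 49.7% of all genes tested and a median of 0.0030. Of the 57, limma called 2 lower, WDR74 and NHP2, against 1.69% of genes. In HT29 it was negative for 54 of 57 with a median of -0.17, against 51.3% of genes and a median of -0.0076, and limma called 0 (0% of genes). At an unadjusted p under 0.05 from limma, 1 member, LTV1, was lower and 0 were higher in HT29, against 0.482% and 1.08% of genes. The same count in SW480 was 16 lower and 1 higher, against 11.1% and 10.7% of genes. The HT29 value moved with a single library: without siPOLR1D-2 replicate 1 the median was -0.045 with 31 members negative, and without siPOLR1D-2 replicate 2 it was -0.37 with 57 negative. In that replicate 1, the median member stood 0.44 above the SCR mean and 1 of 57 members was below it, whereas the other 3 silenced HT29 libraries had medians between 0.038 and 0.059. In SW480 the median stayed between -0.32 and -0.18 without any single library, was -0.14 with the side of the first component as a covariate, and -0.22 on its positive side alone, where siPOLR1D-2 is 1 library. Most markers of other cell types moved the other way in SW480, with a median of 0.84 and 4 of 5 tested genes positive, none of them called. On the positive side alone this did not hold throughout: COL1A1 was at 640, 370 and 248 with siPOLR1D-3 against 700 in the siPOLR1D-2 library. COL3A1 and ALB were lower there in the same way, and CD68 and VWF were mixed. In HT29 the markers had a median of 0.58, with 1 of 3 tested genes negative. The siPOLR1D-2 libraries of SW480 had medians of 0.23, 0.049 and 0.19 against the SCR mean, and the siPOLR1D-3 libraries of -0.11, -0.012 and -0.061, while single SCR libraries ranged from -0.16 to 0.20. On the negative side, SCR replicates 1 to 3 had 0.147, 0.197 and -0.0361. On the positive side, which holds all siPOLR1D-3 libraries, SCR replicates 4 to 6 had -0.155, -0.0719 and -0.0822. The siPOLR1D-3 libraries were thus near the SCR libraries of their own side.

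By role, the median difference between the siRNAs was negative in all 9 groups of members in both lines. In SW480 it was farthest from 0 in the box C/D proteins, at -0.48, followed by the late small-subunit factors at -0.34 and the box H/ACA proteins at -0.33, and nearest to 0 in the proteins tied to rRNA gene transcription, at -0.15. In HT29 the box C/D proteins were again the farthest, at -0.28, and the other groups lay between -0.21 and -0.11. Apart from WDR74 and NHP2, the smallest p in SW480 went to NOLC1 (-0.67, limma, adjusted p = 0.062), DDX56 (-0.45, adjusted p = 0.103) and TSR1 (-0.56, adjusted p = 0.108), and in HT29 to LTV1 (-0.33), FBL (-0.28), NOP2 (-0.32), BYSL (-0.45) and EBNA1BP2 (-0.31), all with an adjusted p of 1. Without siPOLR1D-2 replicate 1 or 2 of HT29, BYSL was at -0.064 and -0.83, NOP2 at -0.20 and -0.44, and EBNA1BP2 at -0.17 and -0.44.

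**Figure D5:**
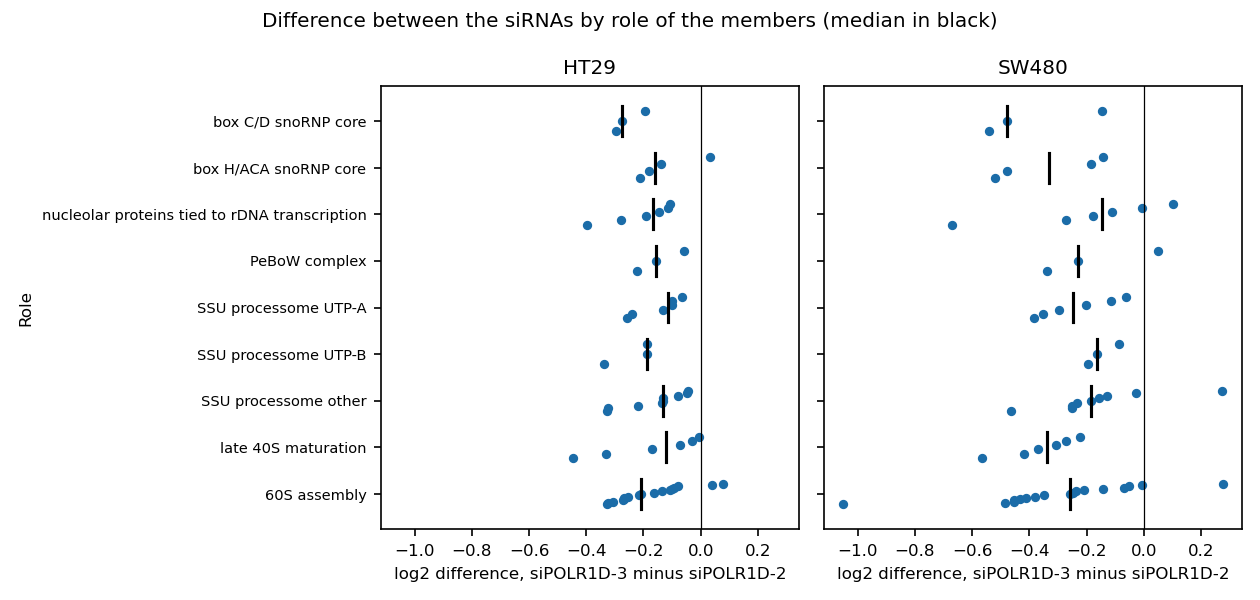
Log2 difference of siPOLR1D-3 and siPOLR1D-2 (x axis) for each member (points), grouped by role (y axis), in HT29 and SW480, with the median of each group in black. Most points lie left of 0, with medians down to -0.48 for the box C/D proteins in SW480 and WDR74 at -1.05.

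The response of SW480 was set against that of HT29 as an interaction, and limma called 0 of the 57 members and 0.0393% of 12724 genes tested in both lines. At an unadjusted p under 0.05, 1 member was lower in this sense, RRP1B, against 4.56% of genes, and 1 higher, WDR74, against 4.02%. WDR74 had an interaction of 0.85 (SE 0.34, limma, adjusted p = 0.464), from -1.04 in HT29 and -0.19 in SW480. RRP1B, a nucleolar protein of large-subunit processing, had -0.58 (limma, adjusted p = 0.373), from 0.39 in HT29 and -0.18 in SW480. WDR12 (-0.40), DDX21 (-0.27) and NOC4L (-0.31) followed, so no member was shown to respond differently in the lines.

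A further 68 ribosome biogenesis factors, 31 of the small and 37 of the large subunit, served as a comparison. In SW480 pooled, limma called 3 of the 68 lower, MAK16, PAK1IP1 and UTP6, against 4.29% of genes, and 1 higher, FTSJ3, against 2.44%, so these too were not called more often than genes at large. MAK16, a large-subunit assembly factor, was at 2075, 2908, 2212, 1645, 1914 and 1998 in SCR, against 1117, 965 and 948 with siPOLR1D-2 and 1101, 1512 and 1477 with siPOLR1D-3. All 6 silenced libraries were below each SCR library, and MAK16 fell by 0.84 on the log2 scale (SE 0.154, limma, adjusted p = 0.00806, exact permutation p = 0.00216, the smallest possible). This call of MAK16 held without each library in turn (adjusted p from 0.0102 to 0.022). It was lost on the negative side of the first component alone (0.219) and with a replicate block. The pooled log2 differences of PAK1IP1, UTP6 and FTSJ3 were -0.39, -0.36 and 0.47 (limma, adjusted p = 0.0431, 0.0396 and 0.0448), and each call was lost without most single libraries (adjusted p up to 0.0926, 0.084 and 0.0964). With siPOLR1D-2, limma called 3 of the 68 lower (5% of genes), NOP53, MAK16 and EFL1, and 3 higher (3.16% of genes), DHX37, KRR1 and MRTO4. With siPOLR1D-3, it called 2 lower (4.45% of genes), MAK16 and RPF2, and 1 higher (2.15% of genes), FTSJ3. The genes of single siRNAs are named after their values were seen. NOP53, which guides RNA decay in large-subunit precursors, was at 2029, 1980 and 2263 with siPOLR1D-2 and at 3685, 4242 and 4262 with siPOLR1D-3, and between 3712 and 4292 in SCR. It thus fell with siPOLR1D-2 by 0.92 (limma, adjusted p = 0.00043). Between the siRNAs limma called 3 of the 68, 1 higher with siPOLR1D-3 (1.62% of genes) and 2 lower (1.69%): NOP53 was higher (0.96, adjusted p = 0.00333), and DHX37 (-0.68, adjusted p = 0.0456) and RPF1 (-0.74, adjusted p = 0.0255) were lower, as WDR74 was. The difference between the siRNAs was negative for 55 of the 68 in SW480, with a median of -0.25, and for 59 of the 68 in HT29, with a median of -0.18. Whether the HT29 value moves with siPOLR1D-2 replicate 1, as that of the members did, was not tested. In HT29 limma called 0 of the 68, and those with the smallest p were URB2 (log2 difference 0.64), RIOK2 (-0.43) and LYAR (0.40), with adjusted p of 0.408, 0.409 and 0.427.

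Of 14 subunits and factors of RNA polymerase I, limma called 1 lower, POLR1D itself, against 4.29% of genes, and 3 higher, against 2.44%, in SW480 pooled. POLR1A, the largest subunit, was at 3261, 2899, 2642, 2584, 3280 and 2868 in SCR, against 3588, 3513 and 4519 with siPOLR1D-2 and 4578, 3645 and 4365 with siPOLR1D-3. The silenced libraries were all above SCR, and POLR1A rose by a log2 difference of 0.46 (SE 0.102, limma, adjusted p = 0.0194, exact permutation p = 0.00216). This call of POLR1A held without each library in turn (adjusted p from 0.0145 to 0.0486). It was lost on the negative side of the first component alone (0.618) and with a replicate block. UBTF, which binds rRNA genes and recruits the polymerase, was at 1729, 1275, 1107, 1337, 1287 and 960 in SCR, against 1682, 1532 and 1765 with siPOLR1D-2 and 2146, 2059 and 2122 with siPOLR1D-3. Of the silenced libraries, 4 were above each SCR library, and UBTF rose by a log2 difference of 0.57 (SE 0.138, limma, adjusted p = 0.0283), a call lost without SCR replicate 3, 4 or 6, siPOLR1D-2 replicate 3 or any siPOLR1D-3 replicate (adjusted p from 0.0502 to 0.0657). The UBTF call was also lost with a replicate block and on the negative side alone (limma, adjusted p up to 0.73). The subunit POLR1G, listed as CD3EAP, rose by 0.62 (SE 0.172, limma, adjusted p = 0.0462), a call that held only without SCR replicate 1 (adjusted p from 0.00772 to 0.1 over the libraries left out). In HT29 limma called 0 of the 14, POLR1D included.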

How the data were processed

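RNA had been sequenced as paired-end reads from exon-captured libraries. The authors quantified them with kallisto (0.44.0), after FastQC (0.11.5), and deposited a signal value per gene and library, the read count normalized with DESeq2 (1.24.0) within a cell line. These values are not whole, so reads were not recovered, a count model was not used, and no counting interval is given. Where a gene name appears more than once, its entries were added (FBL, BOP1, UTP4 and DDX52 appear 2 times each, and the entries of FBL and of BOP1 are identical, so that their levels are doubled).

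Values were tested with limma (3.58.1, R 4.3.3) as log2(value + 1), with empirical Bayes trend and Benjamini-Hochberg adjustment over all genes that reached 10 in 4 or more libraries (HT29) or 6 or more (SW480), and called at an adjusted p under 0.05. Differences are on that scale, which understates those of low genes. Each line was fitted alone, with the siRNAs pooled and, in a fit of 3 groups, each alone. Exact permutation tests were 2-sided. The fit was also run on simulated data, and no result in the text rests on that run. Tables and figures used Python 3.11.15, numpy 2.4.6, pandas 2.3.3 and matplotlib 3.10.9.

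The members and lists were chosen with earlier results of these data known. Genes named are POLR1D, WDR74 and TCOF1, members called or among the 10 smallest p in a pooled comparison, the 5 smallest p in the interaction and between the siRNAs, and the 3 smallest p of other pathway lists per line. Other members are named for called results of single siRNAs, for groups that do not overlap, or as the ends of a range. Alternatives were other normalizations, pseudocounts, filters, variance models and fits, and leaving out each library. One SW480 split was added after seeing the data.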

Additional observations from a re-analysis of the deposited data

Results flagged for a closer look

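Single libraries that lay far from the rest of their group were looked for in 148 groups, the SCR or the silenced libraries of a line for each gene described, and 11 were found. Chance flags about 1 in 20 groups. In HT29, siPOLR1D-2 replicate 1 was the high library for NOC2L at 4628 (others 3105 to 3144), NOP16 at 660 (others 462 to 493.1), BYSL at 526 (others 292.1 to 308.4), WDR12 at 1685 (others 1215 to 1234), NOC4L at 400 (others 269.1 to 290.7) and POLR1G, listed as CD3EAP, at 1873 (others 1175 to 1264). In HT29 SCR cells, RRS1 was at 190 in replicate 3 (others 149.2 to 153.3) and PAK1IP1 at 994 in replicate 2 (others 1132 to 1155).

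In SW480, the outlying libraries were SCR replicate 3 for NOB1, at 1785 (others 1261 to 1447), SCR replicate 1 for NOP16, at 870 (others 471.2 to 607.7), and siPOLR1D-2 replicate 3 for BYSL, at 528 (others 331.2 to 388.4). The siRNAs differed from each other in SW480 for WDR74, with a log2 difference of -1.05, and for NHP2, with -0.521.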

How the results depend on the processing

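Calls among the members depended on single libraries and on the variance model. The sign of the gene values rarely changed, but most of these genes were picked for a small p in the same data. A stable sign was thus partly fixed in advance. The median of all members did change sign in SW480 under settings that kept or split the libraries by side or changed the fit. It ran from -0.0328 to 0.134 pooled and from -0.158 to 0.0562 with siPOLR1D-3. Of 1653 values of genes under other settings, 1421 kept their result, 202 lost a call, 28 gained one and 2 turned in sign: WDR74 in SW480 pooled was 0.0663 among SCR replicates 1 to 3 and siPOLR1D-2 replicates 1 and 2 alone, and TCOF1 with siPOLR1D-3 in SW480 was -0.0786 with a replicate block. The side of the first principal component overlaps with siRNA in SW480. The cause of these shifts was not tested.

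With array weights, limma called 8 members in SW480 pooled (20.4% of all genes), 21 with siPOLR1D-2 (26.9%), 10 with siPOLR1D-3 (25.2%) and 21 between the siRNAs (30.9%), and 1 member, WDR74, in HT29 with siPOLR1D-3 (0.708%). Without the filter on low values these SW480 counts of members were 0, 1, 1 and 1 (2.44%, 3.17%, 2.78% and 1.06% of genes), and without trend 0, 2, 0 and 1 (5.49%, 6.59%, 4.92% and 1.95%). Quantile normalization gave 7 members with siPOLR1D-2 (9.28% of genes) and 0 with siPOLR1D-3 (7.23%), and upper quartile scaling 0 with siPOLR1D-3 (6.23%) and 1 between the siRNAs (3.06%). The count between the siRNAs was also 1 with the highest entry of a gene name alone, a pseudocount of 0.5 or robust empirical Bayes (3.28%, 3.29% and 3.30% of genes). With the side as a covariate, 6 members were called in SW480 pooled (13.3% of genes), 1 with siPOLR1D-3 (5.91%) and 1 between the siRNAs (1.42%). On the positive side alone the counts were 5 pooled (12.5% of genes) and 9 with siPOLR1D-3 (20.3%), and on the negative side alone 0 (0%). The positive side holds 1 siPOLR1D-2 library, so the 18 members with siPOLR1D-2 (21.1%) and 6 between the siRNAs (10.7%) there are not read as results.

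Whether replicate numbers shared between groups pair the libraries is not known. Residuals of the same number had a mean correlation of -0.0368 in HT29 and -0.0153 in SW480, where single values ran from -0.595 to 0.391. With 2 libraries per siRNA in HT29 and this spread in SW480, these means cannot decide it. With a replicate block, limma called 1 of the members, WDR74, in HT29 pooled (adjusted p = 0.0127, 5.54% of genes called) and with siPOLR1D-3 (adjusted p = 0.0481, 0.173%), 1 each, and in SW480 0 pooled (0%), 0 with siPOLR1D-2 (0.133%) and 1 between the siRNAs (0.260%).

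Leaving out each library in turn, the count of members called in SW480 ran from 0 to 4 pooled (3.53% to 8.41% of genes), 0 to 8 with siPOLR1D-2 (2.93% to 11.8%), 0 to 4 with siPOLR1D-3 (0.786% to 8.87%) and 0 to 4 between the siRNAs (0.257% to 5.11%). The median log2 difference of the members in HT29 ran from 0.0455 to 0.192 pooled, 0.0384 to 0.44 with siPOLR1D-2 and -0.369 to -0.0448 between the siRNAs.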
